A study of Mus with 2 samples.

Results

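The antioxidant, glutathione and thioredoxin genes described here are 46 of the 8191 genes in the authors' deposited table of mouse kidney cell clusters, with 178 of its 20111 entries. They were taken by name. The set holds every listed glutathione transferase of the classes Gsta, Gstm, Gstp, Gstt, Gstk, Gsto and Gstz, every listed glutathione peroxidase (Gpx) and peroxiredoxin (Prdx), and 22 further named genes of the same defence system. The rule uses names and no measured value. The study compared whole-kidney cell suspensions of senescent C57BL/6 mice with those of young C57BL/6 mice using single-cell RNA sequencing in droplets. Each group is 1 library. The number of mice per library, their ages and sex are not given in the sources used here. Cells lie, by the authors' own labels, in 7 clusters, which keep those names here: PT and LOH, then endo, and the immune clusters Marco, T, B plus Neutro.

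Cells remove oxidants through linked enzyme systems. Superoxide dismutases turn superoxide into hydrogen peroxide, and catalase, glutathione peroxidases and peroxiredoxins break the peroxide down. Glutathione peroxidases draw on the tripeptide glutathione, and most peroxiredoxins draw on thioredoxin. Glutathione transferases attach glutathione to reactive compounds, which is a large part of the detoxifying work of the proximal tubule. The transcription factor NRF2, encoded by Nfe2l2 and held back by KEAP1, induces many of these genes. Metallothioneins bind zinc and copper through their many cysteines and are induced by metals, stress hormones and inflammation.

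Each value below is the authors' value for a gene in a cluster of 1 library, read from its range and column layout as a mean of scaled expression per cell, and has no SD. The scale factor, depth and number of cells per cluster are not given in the sources used here, so no interval could be set. With 1 library per group there is no test between senescent and young kidney, and a difference is counted here when the means differ by at least 2-fold. A gene is listed in a cluster only where the authors found a p-value under 0.05, by a test that is not named, so a gene that is not listed cannot be called unchanged. The authors' deposited table gave an adjusted p of at most 0.05 to all 31 members listed in PT, where 100% of listed genes passed after rounding (5035 of 5037). By the authors' deposited table, 9 of 25 members passed in LOH (14.7% of listed genes), 0 of 14 in endo (0.973%) and 29 of 36 in Marco (49.4%). By the authors' deposited table, 24 of 32 passed in T (30.7%), 18 of 37 in B (19.7%) and 0 of 3 in Neutro (0%). These adjusted p-values describe spread between cells of the same libraries, not between mice.

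The cluster labels were set against fixed markers. The sum of the listed macrophage and monocyte markers was 416 in the senescent and 51.4 in the young library in Marco, where all 16 were listed. In T 13 of 14 T and natural killer cell markers were listed, all higher in the senescent library, with sums of 166 and 34.7 in the young library. In B 8 of 10 B cell markers were listed, again all higher, with sums of 123 in the senescent and 46.2 in the young library. In Neutro 2 of 10 neutrophil markers were listed. Umod, the defining transcript of the thick ascending limb, had means of 148 and 47.6 in LOH in the senescent and young libraries. LOH listed 3 of 10 thick ascending limb markers and 2 of 12 markers of the distal tubule and collecting duct, Slc12a3 and Pvalb. Of 13 endothelial markers 0 were listed in endo, so that label could not be checked. Proximal tubule markers differed between the libraries in every cluster. Of 27 such markers, 25 were listed in LOH and Marco, 27 in T and 26 in B, all of them lower in the senescent library. Their listed means summed to 29.9 in the senescent and 934 in the young library in Marco, to 25.8 and 764 in T, to 30.6 and 772 in B, and to 41.6 and 344 in LOH. In endo 11 of 12 listed tubule markers were lower in the senescent library, with sums of 106 and 419, and in PT itself 13 of 22 were lower, with sums of 270 and 1040. None of these markers was at 0 in either library. Of the young sums, Kap alone made up 719 in PT, 294 in endo, 642 in Marco, 505 in T, 499 in B and 202 in LOH. Its senescent means were 21.4, 4.31, 2.24, 2.82, 1.24 and 1.54 in the same order. Neutrophil markers were higher in the senescent library wherever listed, S100a9 for example at 1.13 against 0.313 in the young library in PT and at 1.93 against 0.0191 in Marco. The part of any of these marker differences in the values below was not tested.

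In PT the antioxidant genes went both ways, whereas in the immune clusters Marco, T and B most were lower in the senescent library. In PT 9 of 31 listed members were at least 2-fold higher (29.0%), against 57.2% of all listed genes, and 6 were at least 2-fold lower (19.4%), against 5.6%. For the other clusters the share of all listed genes past the same fold stands in parentheses. In LOH 3 of 25 members were at least 2-fold higher (27.5%) and 4 were at least 2-fold lower (21.1%). In endo 5 of 14 were at least 2-fold higher (41.4%) and 4 lower (33.9%), both close to the shares of all listed genes. In Marco 6 of 36 were at least 2-fold higher (47.6%) and 24 were at least 2-fold lower (31.5%). In T 2 of 32 were at least 2-fold higher (25.9%) and 25 lower (38.9%), and in B 1 of 37 was higher (16.3%) and 29 were lower (54.1%). Neutro listed 3 members, of which 2 were at least 2-fold higher (5.29%) and 1 lower (93.4%). Median log2 ratios of senescent over young were 0.46 for the members in PT, -0.63 in LOH, -0.03 in endo, -1.68 in Marco, -1.84 in T and -1.98 in B. The medians of all listed genes were 1.22 in PT, -0.39 in LOH, -0.47 in endo, 0.91 in Marco, -0.54 in T and -1.15 in B. Members lay above the cluster's own median in 7 of 31 cases in PT, 7 of 25 in LOH, 7 of 14 in endo, 6 of 36 in Marco, 4 of 32 in T and 11 of 37 in B.

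**Figure D1:**
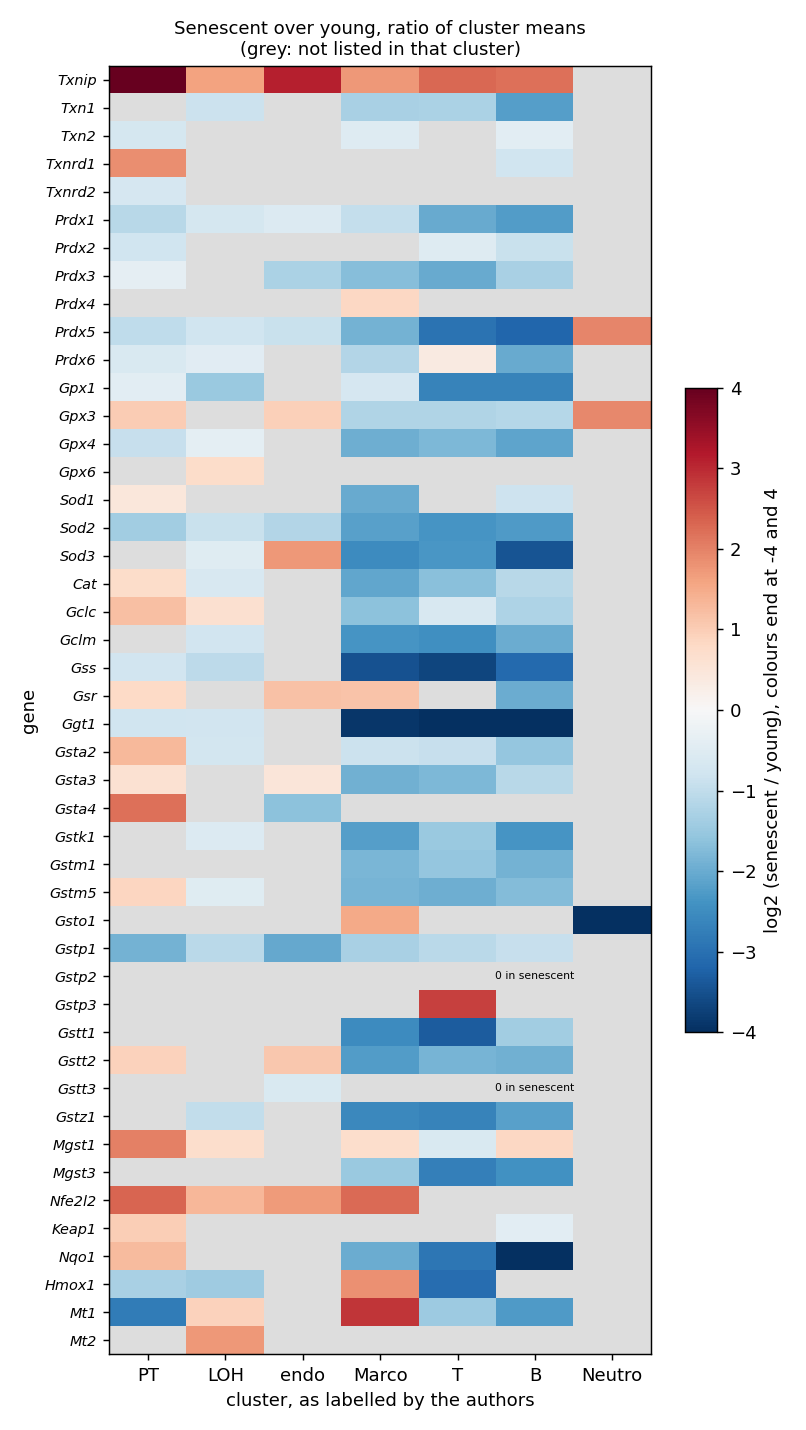
Log2 ratio of the senescent to the young cluster mean for 46 genes (rows, by role) in 7 clusters (columns); red is higher and blue lower in the senescent library, grey is not listed, and colours end at -4 and 4. Txnip is higher in all 6 clusters that list it, the columns Marco, T and B are mostly blue, and PT is mixed; ratios are as the authors scaled them, and relative to the median of all listed genes in PT (1.22) 24 of 31 members are lower.

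The largest ratio among the 31 members listed in PT was that of Txnip, which encodes the thioredoxin-interacting protein, an inhibitor of thioredoxin and a brake on glucose uptake. Its mean was 9.28 in the senescent library, against 0.244 in the young library, a 38.0-fold higher value. Txnrd1, the cytosolic thioredoxin reductase, had a mean of 1.20 in the senescent and 0.331 in the young library (3.63-fold higher). The mitochondrial partners went the other way. Thioredoxin 2 (Txn2) had means of 1.57 in the senescent and 2.57 in the young library, and its reductase Txnrd2 had means of 0.234 and 0.374. The thioredoxin genes of PT were thus split, with the inhibitor and the cytosolic reductase higher and both mitochondrial genes lower.

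Peroxiredoxins, which reduce peroxides at a reactive cysteine, were lower in the senescent library in all 5 cases listed in PT. Prdx1, a cytosolic member, had means of 11.2 in the senescent and 24.2 in the young library (2.16-fold lower). Prdx5, found in mitochondria, peroxisomes and cytosol, had means of 24.2 and 48.9 (2.02-fold lower). The other 3, Prdx2, Prdx3 and Prdx6, were lower by 1.28-fold to 1.73-fold. Prdx2 is abundant in red blood cells, and the 3 erythroid markers listed in PT, all globin genes, were lower too. Their means summed to 3.28 in the senescent and 6.86 in the young library, and their part in the Prdx2 value of 2.55 against 4.41 was not tested. Sod2, the manganese superoxide dismutase of mitochondria, was 2.64-fold lower in PT, at 3.84 in the senescent and 10.1 in the young library. Sod1, the cytosolic copper-zinc enzyme, had means of 4.02 in the senescent and 2.91 in the young library, and catalase (Cat), of peroxisomes, had means of 4.03 and 2.40. The mitochondrial dismutase and its cytosolic counterpart therefore differed in opposite directions, although the difference in Sod1 was only 1.38-fold.

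Glutathione peroxidases also divided in PT. Gpx3, the plasma enzyme that is secreted mainly by the proximal tubule, had a mean of 126 in the senescent library, against 62.7 in the young library (2.02-fold higher). Gpx1, the cytosolic enzyme, had means of 46.6 in the senescent and 62.5 in the young library, and Gpx4, which reduces lipid peroxides in membranes, had means of 16.5 and 31.02 (1.88-fold lower). Of these 3 selenoenzymes the secreted one was higher and both cellular ones were lower. Among genes of glutathione supply, Gclc, the catalytic subunit of the rate-limiting enzyme of synthesis, was 2.30-fold higher, at 1.31 in the senescent and 0.570 in the young library. Glutathione synthetase (Gss), which completes the tripeptide, had means of 1.52 and 2.60. Glutathione reductase (Gsr), which regenerates it, had means of 1.77 in the senescent and 1.02 in the young library. Ggt1, the brush border enzyme that begins the breakdown of glutathione in the tubular lumen, had means of 3.62 and 6.33. The first enzyme of synthesis and the recycling enzyme were higher, and the last enzyme of synthesis and the breakdown enzyme were lower.

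Of the 7 glutathione transferases listed in PT, 6 had higher means in the senescent library, as had 78.4% of all genes listed there. Gsta4, which conjugates the lipid peroxidation product hydroxynonenal, was 4.64-fold higher, at 1.42 in the senescent and 0.306 in the young library. The membrane-bound Mgst1 was 4.06-fold higher, at 2.90 and 0.713, and Gsta2 was 2.46-fold higher, at 8.53 and 3.47. Gsta3, Gstm5 and Gstt2 were higher by 1.51-fold to 1.90-fold, which is below the median of all listed genes. Gstp1, the pi-class transferase, was the only one lower in PT, 3.74-fold, at 0.598 in the senescent and 2.23 in the young library. Nfe2l2 was 5.02-fold higher in PT, at 1.23 in the senescent and 0.245 in the young library. Its repressor Keap1 had means of 0.265 and 0.135, and Nqo1, a quinone reductase and standard NRF2 target, had means of 0.413 and 0.172 (2.40-fold higher). Hmox1, the haem oxygenase that NRF2 also induces, was 2.47-fold lower, at 0.143 in the senescent and 0.353 in the young library. Mt1 was 6.97-fold lower in PT, at 0.172 and 1.20. Mt1 was highest in LOH, and all 5 thick ascending limb markers listed in PT were lower as well, with sums of 1.10 in the senescent and 7.28 in the young library. Whether transcripts of that segment had a part in the Mt1 value was not tested.

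**Figure D2:**
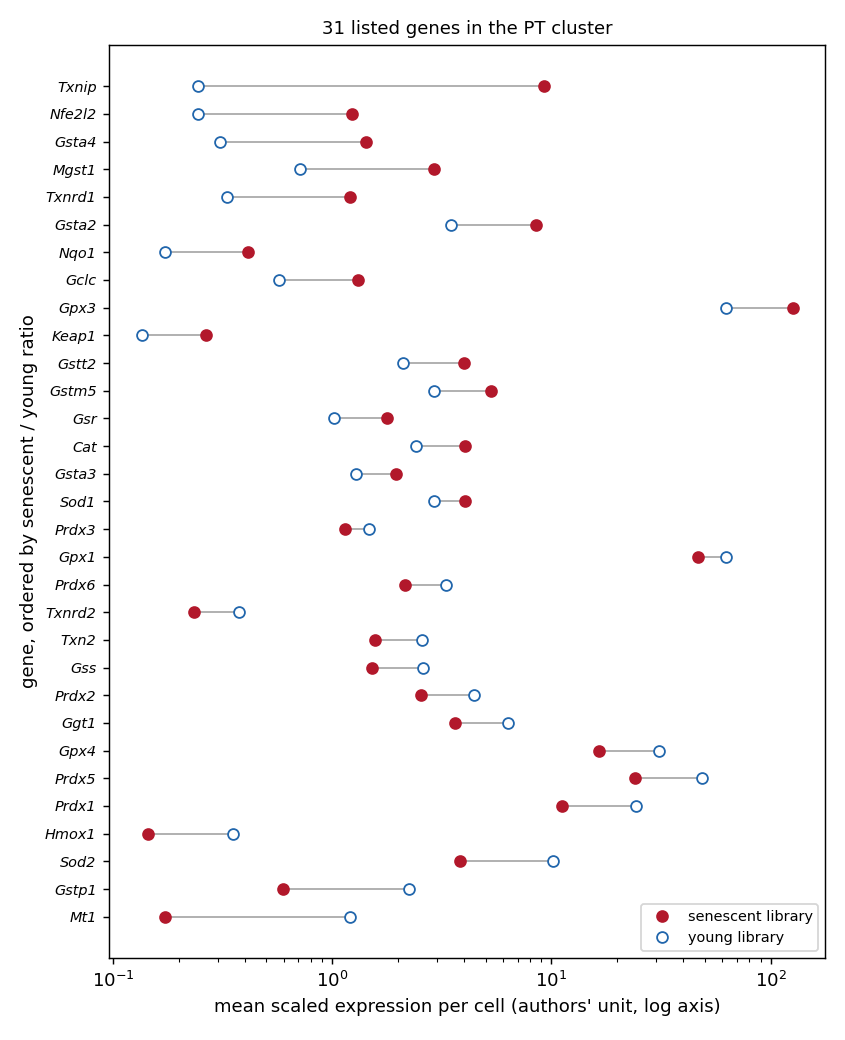
Means of the 31 genes listed in PT in the senescent library (filled red) and the young library (open blue), on a log axis in the authors' unit of mean scaled expression per cell, 1 library each, ordered by their ratio. Txnip is at the top with 9.28 and 0.244, Mt1 is at the bottom with 0.172 and 1.20, and the peroxiredoxins lie among the lower genes.

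Direction in PT went with level on the authors' per-cell scale, which is not per length. Of all listed PT genes with a mean over both libraries of at least 5, 30.7% were higher in the senescent library, against 47.5% of those from 1 to 5 and 86.5% of those under 1. The median log2 ratios of these level classes were -0.67, -0.40 and 1.39 in the same order. Among the members, 2 of 7 with a mean of at least 5 were higher, as were 8 of 15 from 1 to 5 and 6 of 9 under 1. Of the 16 members with higher means in PT, 9 had a log2 ratio below the cluster median of 1.22, among them Gpx3 and Gclc. The 7 above that median were Txnip, Nfe2l2, Gsta4, Mgst1, Txnrd1, Gsta2 and Nqo1. Those 9 genes would count as lower if the ratios were centred on that median, whereas every peroxiredoxin, Sod2, Gpx1 and Gpx4 were lower either way. Against the median of their own level class, however, Gpx1 (-0.42) and Prdx3 (-0.36) lay higher. The other listed peroxiredoxins, Sod2 and Gpx4 lay lower by that measure too.

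In LOH both metallothioneins were higher in the senescent library. Mt1 had a mean of 25.7 in the senescent library, against 13.5 in the young library, a difference of 1.90-fold. Mt2 was 3.35-fold higher, at 3.22 and 0.961, and was listed in no other cluster. Markers of several cell types were higher in LOH too, with sums of 185 in the senescent and 74.2 in the young library for 3 thick ascending limb markers, 9.04 and 1.21 for 4 macrophage markers, and 5.42 and 0.0575 for 2 neutrophil markers. Of 2 listed distal tubule and collecting duct markers, Slc12a3 was higher, at 15.5 and 9.05, and Pvalb lower, at 0.971 and 2.11. The part of all these markers in the metallothionein values was not tested. Txnip (5.27 in the senescent and 1.73 in the young library) and Nfe2l2 (1.85 and 0.733) were the other 2 members that were at least 2-fold higher. Gpx1 was lowest by ratio, at 7.98 in the senescent and 22.4 in the young library (2.80-fold lower). Hmox1, Gstp1 and Gss were lower by 2.05-fold to 2.65-fold. The 3 listed peroxiredoxins, Sod2 and Txn1, which encodes cytosolic thioredoxin, were lower by 1.37-fold to 1.86-fold. Gpx6 was listed in LOH alone, at 2.16 in the senescent and 1.29 in the young library. The 25 tubule markers listed in LOH also had lower senescent means.

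In endo the 12 members that PT also listed had a median of 79.99% of their PT level in the senescent library and 79.8% in the young library. Gpx3 had means of 102 in the senescent and 52.3 in the young library, and Txnip had means of 5.81 and 0.676 (8.60-fold higher). Sod3, the extracellular superoxide dismutase, was 3.30-fold higher in endo, at 1.22 and 0.371. Gsta4, which was higher in PT, was 3.11-fold lower in endo, at 2.17 in the senescent and 6.73 in the young library. Gstp1 was 4.17-fold lower, at 0.580 and 2.42. Tubule markers stood at a median of 57.1% of their PT level in the senescent and 61.8% in the young library in endo.

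Txnip was the one member with higher means in the senescent library in every cluster except Neutro, where it was not listed. Its fold was 38.0 in PT, 8.60 in endo, 4.87 in T, 4.56 in B, 3.32 in Marco and 3.04 in LOH. The young means lay between 0.244 in PT and 1.73 in LOH, and the senescent means between 2.52 in Marco and 9.28 in PT. PT was the cluster with the highest senescent and the lowest young mean. The authors' deposited table gave Txnip an adjusted p of at most 0.05 in PT, LOH and Marco, but of 1 in endo, 0.775 in T and 1 in B. Nfe2l2 was listed in 4 clusters and was higher in each, at 2.61 in the senescent and 0.542 in the young library in Marco (4.82-fold), 1.68 and 0.513 in endo (3.28-fold), and 1.85 and 0.733 in LOH (2.52-fold), beside the 5.02-fold in PT. It was not listed in T or B. Sod2, Prdx1, Prdx5 and Gstp1 were lower in the senescent library in all 6 clusters other than Neutro, and no other member was. Ggt1, Gss, Gpx1, Gpx4 and Prdx3 were lower in each of the 5 clusters that listed them.

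**Figure D3:**
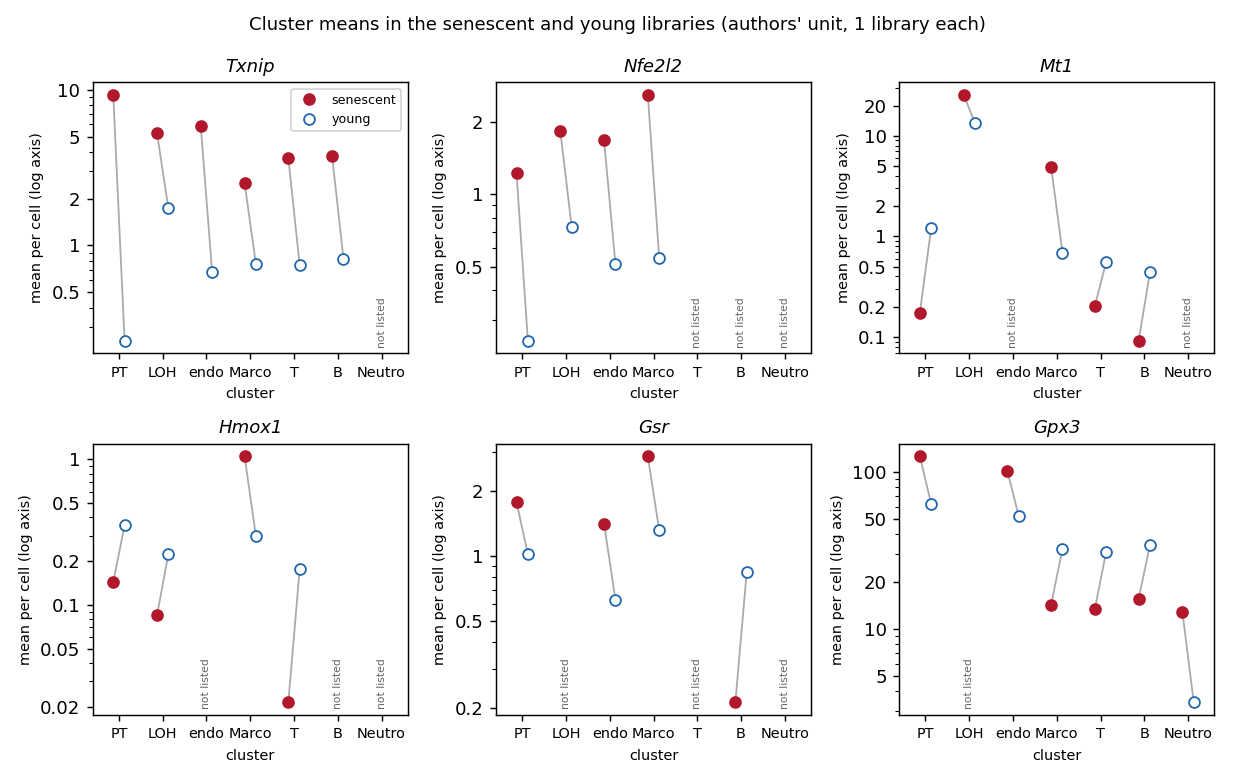
Cluster means of Txnip, Nfe2l2, Mt1, Hmox1, Gsr and Gpx3 in the senescent (filled red, left) and young (open blue, right) libraries, on log axes in the authors' unit, with lines joining the pair of a cluster. Txnip and Nfe2l2 are higher in the senescent library wherever they are listed, while Mt1, Hmox1, Gsr and Gpx3 differ in direction between clusters.

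In Marco, the cluster with macrophage markers, 8 members had higher means in the senescent library against the general direction. Mt1 led them, at 4.95 in the senescent and 0.689 in the young library (7.18-fold higher). Hmox1, which macrophages use to degrade haem, was 3.55-fold higher, at 1.06 and 0.297. Gsr was 2.20-fold higher, at 2.89 and 1.31, and Gsto1, the omega-class transferase, was 2.84-fold higher, at 0.432 and 0.152. With Txnip and Nfe2l2 these made up the 6 genes past 2-fold. Prdx4, the peroxiredoxin of the endoplasmic reticulum, and Mgst1 were higher by 1.77-fold and 1.63-fold, which is below the cluster's median of all listed genes. All 16 macrophage and monocyte markers were higher in the senescent library too, with a median log2 ratio of 2.81, and the part of that difference in these 8 genes was not tested. Among the 28 lower members, Ggt1 stood at 0.414 in the senescent and 6.10 in the young library (14.7-fold lower) and Gss at 0.174 and 1.93 (11.1-fold lower). Gclm, the regulatory subunit of the rate-limiting enzyme, was 5.19-fold lower, at 0.802 and 4.16. Gpx1 had one of the smaller differences, at 26.1 in the senescent and 41.5 in the young library (1.59-fold lower).

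The T and B clusters had the same broad direction as Marco with fewer higher members. Ggt1 was 15.9-fold lower in T, at 0.363 in the senescent and 5.78 in the young library, and 19.1-fold lower in B, at 0.256 and 4.89. Prdx5 was 7.76-fold lower in T, at 3.74 and 29.0, and 8.96-fold lower in B, at 3.53 and 31.6. Gpx1 was 6.42-fold lower in T, at 5.55 and 35.6, and 6.44-fold lower in B, at 7.20 and 46.4, well past its 1.59-fold in Marco. The genes that went against this direction were few. In T they were Txnip, Prdx6 (2.03 in the senescent and 1.57 in the young library) and Gstp3 (0.684 and 0.103). In B they were Txnip and Mgst1 (0.383 and 0.217). Gstp2 and Gstt3 were listed at 0 in the senescent library in B, with young means of 0.151 and 0.230. Relative to the median of all listed genes, Prdx2 lay on the higher side in T, and so did 9 of the 35 lower members in B, among them Gpx3, Cat and Sod1. Glutathione transferases followed the same direction in all 3 immune clusters, with 9 of 12 listed at least 2-fold lower in Marco (31.5% of all listed genes), 9 of 12 in T (38.9%) and 11 of 13 in B (54.1%). Gstz1, which also acts in tyrosine breakdown, was 5.99-fold lower in Marco, at 0.203 in the senescent and 1.22 in the young library, 6.32-fold lower in T and 4.55-fold lower in B. The microsomal Mgst3 was 6.71-fold lower in T, at 0.292 and 1.96, 5.41-fold lower in B and 2.81-fold lower in Marco. Gstm1 was lower by 2.89-fold to 3.73-fold in the 3 clusters, Gstt1 by 2.61-fold to 9.99-fold and Gstk1, the kappa-class enzyme of mitochondria and peroxisomes, by 2.83-fold to 5.14-fold. Gstm1, Gstt1 and Mgst3 were listed in no cluster outside Marco, T and B. In Neutro, Gpx3 (12.8 in the senescent and 3.39 in the young library) and Prdx5 (21.8 and 5.66) were higher, and Gsto1 (0.0433 and 1.12) was lower. Young Neutro means recurred exactly between genes, at 1.12 for Gsto1 and Sepsecs, 3.39 for Gpx3 and Cndp2, and 5.66 for Prdx5 and Miox. Such repeats can arise where few transcripts were counted, and cell numbers per cluster are not given.

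Levels in the immune clusters were then set against PT within each library, over genes listed in both. In the young library the members stood at a median of 71.7% of their PT level in Marco, 57.7% in T and 68.7% in B. The corresponding senescent values were 31.1% in Marco, 15.5% in T and 23.6% in B. Proximal tubule markers, measured the same way, stood at 8.75% in the senescent and 99.5% in the young library in Marco, at 7.69% and 86.8% in T, and at 7.80% and 69.4% in B. In the young library, 24 of 26 members in Marco, 17 of 23 in T and 21 of 27 in B lay inside the range of the tubule markers. The members were also alike between these clusters in that library. Over the 29 members listed in all 3 and above 0, the highest cluster mean was a median of 1.32 times the lowest in the young library and 1.89 times in the senescent library. Txn1, for example, had young means of 11.3 in Marco, 11.1 in T and 10.5 in B. The same spread was not computed for other genes, so this likeness cannot be called particular to the members.

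In the senescent library 18 of 26 members in Marco lay above the highest tubule marker, which stood at 20.9% of its PT level, and 8 lay within the marker range. In T 12 of 23 lay above the highest marker (15.05%) and 11 within the range. In B 7 of 27 lay above it (40.2%), 19 within and 1 below. Napsa alone set that upper bound in B, and the next highest marker, Slc13a3, stood at 15.6%. Members between these markers in B included Sod2 (31.2%), Prdx1 (30.6%) and Cat (23.9%), so the count within the range depends on Napsa. The senescent level of Mt1 in Marco was 2881% of that in PT, that of Hmox1 736%, that of Nfe2l2 213% and that of Gsr 163%. Prdx1 (64.4%), Txn2 (63.8%) and Gpx1 (56.0%) followed at lower values. In T, Mt1 (118%), Gstp1 (105%) and Prdx6 (94.6%) were nearest to or above their PT level, and in B Gstp1 (107%), Keap1 (68.9%) and Prdx2 (55.8%) were. The PT means behind the Mt1 and Hmox1 percentages were low in the senescent library, at 0.172 and 0.143. Mt1 in T was itself low, at 0.203 in the senescent and 0.560 in the young library. The PT mean behind the Gstp1 percentages was also low, at 0.598 in the senescent and 2.23 in the young library. Gstp1 itself was lower in the senescent library in T (0.629 and 1.33 in the young library) and in B (0.638 and 1.21). Members within the tubule marker range in the senescent library included Ggt1, at 11.4% in Marco, 10.0% in T and 7.06% in B. Gpx3 stood at 11.2% in Marco, 10.6% in T and 12.3% in B, and Gsta2 at 8.87%, 7.18% and 9.22%. Ggt1, Gpx3 and Gsta2 are known as genes of the proximal tubule. The part of tubule transcripts in these immune-cluster values was not tested.

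**Figure D4:**
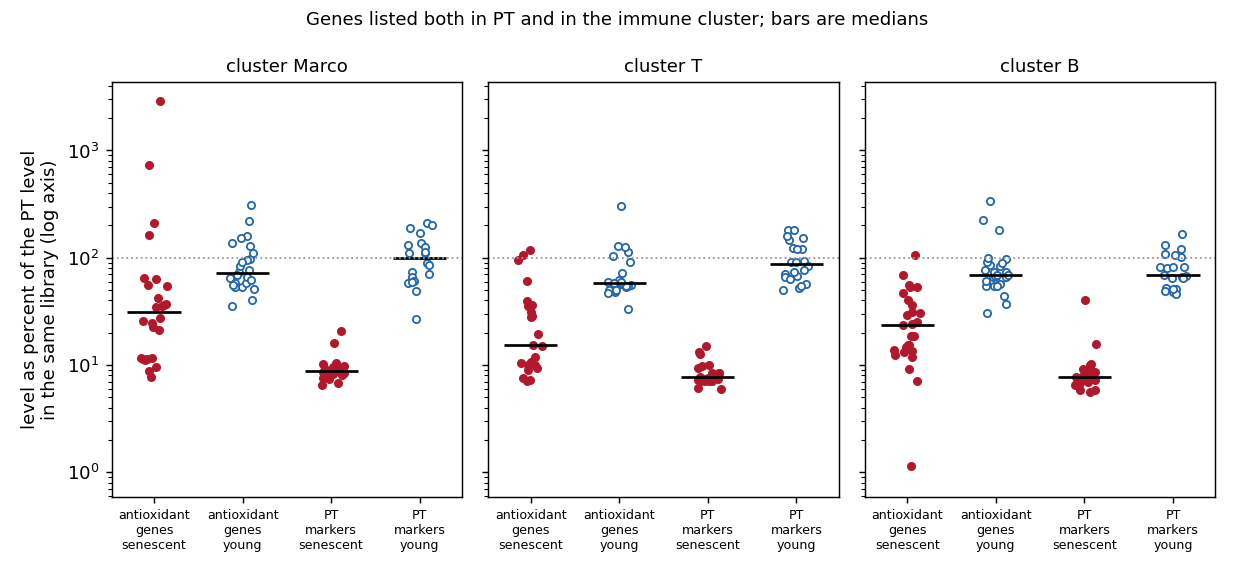
Level of each gene in Marco, T and B as a percent of its PT level in the same library, on a log axis, for antioxidant genes and proximal tubule (PT) markers listed in both clusters; filled red is the senescent library, open blue the young library, bars are medians and the dotted line is 100%. Tubule markers in the senescent library gather near 8%, and antioxidant genes overlap them and reach higher; in the young library both sets overlap.

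Other genes of the same pathways were followed through fixed lists. In PT, 13 of 21 listed genes of other NRF2 targets and regulators were at least 2-fold higher (57.2% of all listed genes) and 3 at least 2-fold lower (5.6%), with a median log2 ratio of 1.20, beside 1.22 for all genes listed in PT. Cbr1, a carbonyl reductase, was 10.4-fold higher, at 4.18 in the senescent and 0.403 in the young library. Abcc2, an exporter of glutathione conjugates, was 5.51-fold higher, at 3.72 and 0.674, and Mafg, a DNA-binding partner of NRF2, was 4.59-fold higher, at 1.65 and 0.360. Akr1a1, an aldehyde reductase, was 2.86-fold lower, at 7.76 in the senescent and 22.2 in the young library. Of 13 listed genes of glutathione synthesis and salvage, 1 was at least 2-fold higher and 3 lower, with a median log2 ratio of -0.38. Ggct, which breaks down glutamyl peptides, was 5.76-fold lower, at 0.474 and 2.73. Among 16 listed thioredoxin-fold and repair genes, 3 were at least 2-fold higher and 1 lower, with a median of 0.51. They included Arrdc3, of the same arrestin family as Txnip, at 1.33 in the senescent and 0.175 in the young library (7.56-fold higher), and Msrb1, a selenoprotein that repairs oxidised methionine, at 2.65 and 5.97. Of 8 listed glutaredoxin, glyoxalase and other glutathione-using genes, 1 was at least 2-fold higher and 2 lower in PT, with a median of -0.70. Beside each of these lists, all genes listed in PT gave 57.2% higher, 5.6% lower and a median of 1.22.

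Oxidant-producing enzymes in PT included Nox4, the NADPH oxidase of the tubule, which was 5.00-fold higher at 3.07 in the senescent and 0.614 in the young library, and Cyba, its partner subunit, which was 2.12-fold lower at 10.1 and 21.3. Of the 6 listed genes of that list 2 were at least 2-fold higher (57.2% of all listed genes) and 1 lower (5.6%), with a median of 0.83. Selenop, the selenium carrier, was 2.44-fold lower in PT, at 4.72 and 11.5. On the selenoprotein list 3 of 10 listed genes were at least 2-fold higher (57.2%) and 1 lower (5.6%), with a median of 0.69. Of 12 listed metal-handling genes 8 were at least 2-fold higher in PT and 1 lower, with a median of 1.26, beside 57.2%, 5.6% and 1.22 for all listed genes. Their summed means went the other way, at 148 in the senescent and 235 in the young library, of which Fth1, the ferritin heavy chain, made up 138 and 226. The gene at least 2-fold lower was Ccs, the copper chaperone of Sod1, at 1.34 in the senescent and 2.81 in the young library. In Marco, the phagocyte oxidase genes Ncf4 (1.96 in the senescent and 0.183 in the young library) and Ncf1 (1.51 and 0.178) were 10.7-fold and 8.47-fold higher. Macrophage markers were higher there by a median log2 ratio of 2.81, Ctss for example 10.9-fold, and the 3 listed neutrophil markers summed to 6.58 in the senescent and 0.0589 in the young library, and the part of either in these values was not tested. Bach1, a repressor of Hmox1, was 5.02-fold higher there, at 1.44 and 0.288, and Pgd, of the pentose phosphate pathway, was 4.93-fold higher, at 1.52 and 0.308. Of the same NRF2 list, Me1 was 20.7-fold lower in Marco, at 0.127 in the senescent and 2.64 in the young library. Abcc2 was 4.53-fold lower there, at 0.261 and 1.18. Of 18 listed genes of the NRF2 list 7 were at least 2-fold higher in Marco (47.6% of all listed genes) and 5 lower (31.5%), with a median of 0.01. Of 15 oxidant-producing enzymes 6 were higher and 7 lower there, beside the same shares, with a median of -0.94. The median of all genes listed in Marco was 0.91. The glutathione synthesis and salvage list was at least 2-fold lower in 13 of 14 listed genes in Marco (31.5% of all listed genes), 13 of 14 in T (38.9%), 13 of 13 in B (54.1%) and 7 of 9 in LOH (21.1%). Proximal tubule markers were at least 2-fold lower alongside, in 24 of 25 listed cases in Marco, 27 of 27 in T, 25 of 26 in B and 21 of 25 in LOH. Selenow was 4.41-fold higher in Marco, 3.38-fold in T and 6.45-fold in B, where its means were 3.19 in the senescent and 0.495 in the young library. Selenop was 2.14-fold, 8.54-fold and 16.8-fold lower in Marco, T and B, and Sephs2 3.79-fold, 3.65-fold and 4.72-fold lower. Of the listed selenoprotein genes, 2 of 9 were at least 2-fold higher in Marco (47.6% of all listed genes) and 3 lower (31.5%). In T 1 of 12 was higher (25.9%) and 4 lower (38.9%), and in B 1 of 8 was higher (16.3%) and 3 lower (54.1%).

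All 46 members matched the RefSeq gene table of the build GRCm38.p6, which is the mm10 named in the submitters' processing notes, and all are annotated as protein coding. Txnip lies on chromosome 3 from 96557957 to 96561857, Nfe2l2 on chromosome 2 from 75675513 to 75704663 and Gpx3 on chromosome 11 from 54902854 to 54910387. Mt2 (chromosome 8, 94172618 to 94173567) and Mt1 (94178883 to 94180327) are neighbours 5315 bases apart. Both were higher in LOH, while the other clusters listed at most Mt1. Gstp1, Gstp2 and Gstp3 stand side by side on chromosome 19 between 4035411 and 4059605 and have closely similar sequences, as do members of the alpha, mu and theta classes. How reads were divided between such copies is not given in the sources used here, so values of single transferase genes, and of Gstp2 and Gstp3 above all, are uncertain. Each value is for the whole gene and does not separate exons, introns or untranslated regions.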

How the data were processed

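The assay was single-cell RNA sequencing of kidney cells in droplets, with 1 library of senescent and 1 of young mice. Per the submitters' processing notes, Cell Ranger 2.1.1 and the build mm10 were used. Filters on cells, doublets, free RNA, clustering and the authors' test are not given in the sources used here. Per the series' design text, 4408 senescent and 10895 young cells were isolated. The deposited columns for the groups hold a signal by cluster, taken from its values as the authors' mean of scaled expression, and were assigned to libraries by the sample descriptions. Every direction rests on those descriptions, since the table's name for the contrast names neither group. The authors' log2 fold change equals the log2 ratio of the deposited means after adding 0.0001 to each, within 0.01, in all but 1 of 20111 entries and in every member. The deposited p-values are under 0.05 in every entry, and the smallest absolute log2 fold change is 0.36. Ratios were computed here without a pseudocount, so a mean of 0 in 1 library counts as past 2-fold. Members and lists were chosen with earlier results of these data known. Full values were given, as set by the naming rule, to members at least 2-fold apart with a mean of at least 1, or listed in 5 or more clusters, other members being named since all belong to the set. From each list up to 4 genes per cluster with the largest ratio and a mean of at least 1 could be named. No test was run. The counting was tested on simulated data. Alternatives were other folds, minimum means, pseudocounts, the authors' adjusted p and ratios centred on the cluster median. Python 3.11.15, numpy 2.4.6, pandas 2.3.3 and matplotlib 3.10.9 were used.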

Additional observations from a re-analysis of the deposited data

Results flagged for a closer look

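For 12 of the 40 genes listed in at least 2 clusters, the senescent mean was at least 2-fold higher in 1 cluster and at least 2-fold lower in another. That is 30.0% of these members, beside 15.8% of the 5418 genes of the table listed in at least 2 clusters. With each ratio centred on the median of all genes listed in its cluster, an alternative chosen after seeing the data, 6 members were past 2-fold both ways (15%), beside 9.06% of all such genes. A gene listed in more clusters has more chances to differ both ways, and the shares were not matched for this. The 46 members held 178 entries, against 20111 for the 8191 genes of the whole table, so the shares are not directly comparable. These differences between clusters were not tested, since each group had 1 library. The gap, in log2 units between the highest and the lowest cluster, was 6.199 for Gsto1 (Marco and Neutro), 5.91 for Nqo1 (PT and B) and 5.65 for Mt1 (Marco and PT). It was 5.16 for Sod3 (endo and B), 5.11 for Prdx5 (Neutro and B) and 4.87 for Hmox1 (Marco and T). The median log2 ratio of all listed genes was -5.10 in Neutro, and relative to the cluster medians Gsto1 was higher in both clusters, at 0.60 in Marco and 0.41 in Neutro. For Gsta4 the gap between PT and endo was 3.85. Smaller gaps were 3.32 for Gstt2 (endo and Marco), 3.15 for Gsr (endo and B), 3.13 for Gpx3 (Neutro and T), 2.86 for Gclc (PT and Marco) and 2.86 for Gsta2 (PT and B). The larger mean was 0.119 for Nqo1 in B and 0.176 for Hmox1 in T, so these ends rest on low values. For Gsto1 in Neutro the senescent mean was 0.0433, and the young mean of 1.12 recurred exactly in another gene there. The young Neutro means of Gpx3 and Prdx5 also recurred in other genes, so the Neutro ends may rest on few transcripts. Most low ends lie in the immune clusters, whose listed proximal tubule markers all had lower senescent means, and the part of these markers in the gaps was not tested.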

How the results depend on the processing

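Counts of genes past the fold are given as higher and lower in the senescent library, where they moved by over 1.5 times. With a fold of 1.5 the counts were 15 and 13 in PT and 7 and 13 in LOH, and 2 were higher in B. With a fold of 4 they were 4 and 1 in PT, 0 and 0 in LOH, 1 and 1 in endo and 2 and 11 in Marco, while 14 were lower in T, 17 lower in B and 0 higher in Neutro. A pseudocount of 1 gave 4 and 3 in PT, 1 and 2 in endo, 3 and 11 in Marco and 1 and 12 in T, with 1 lower in LOH and 14 lower in B. In LOH the lower count was also 1 with a pseudocount of 0.1 and with a mean of at least 1, and in T the higher count was 1 with a mean of at least 1. A minimum mean of 0.1 moved no count by that much. Requiring the authors' adjusted p in addition left 2 lower in LOH, 0 and 0 in endo, 0 higher in T, 0 and 17 in B and 0 and 0 in Neutro. Centred on the median of all listed genes, the counts were 2 and 15 in PT, 7 and 2 in LOH and 2 and 15 in B, with 2 lower in endo, 2 higher in Marco and 0 lower in Neutro. That centring turned the median log2 ratio of the members to -0.76 in PT and 0.45 in endo, and a pseudocount of 1 turned it to 0.054 in endo. A pseudocount of 1 brought single log2 ratios towards 0, for example to -0.91 for Mt1 and 0.84 for Nfe2l2 in PT and to -1.32 for Gss in Marco. The authors' log2 fold change is made from the same means and is no independent check. No paired analysis was possible because each group had 1 library. Depth and cell numbers per cluster are unknown, so low means carry an error that could not be computed.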
